A study of Mus musculus with 6 samples.

Results

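The genes described here are 46 genes of the lysosome: 12 cathepsins and legumain, 2 cystatins, 2 lysozymes, 19 lysosomal enzymes that break down sugars, lipids, sulfates and peptides, 4 activator and lipid carrier proteins, 3 membrane proteins and 3 transcription factors. They were listed by symbol, and each was read from the brightest probe set that names it alone. All 46 were measured, among 19938 genes in all. RNA came from whole bone marrow of 6 mice taken when disease set in, with 1 Affymetrix mouse gene array per mouse. The recipients were CD45.1+ and lethally irradiated. They had been given CD45.2+ LSK cells, the marrow fraction rich in stem and progenitor cells, that carried introduced Meis1 together with HoxA9AA-GFP in 3 mice (HoxA9AA/Meis1) or HoxA9wt-GFP in 3 mice (HoxA9wt/Meis1). Introduced Meis1 is thus common to both groups. What AA stands for, the promoter of the constructs, the sex and the age are not stated in the labels. Whole marrow can hold recipient cells beside donor cells, and the labels name no sort. Values are on a log2 scale after RMA, where a step of 1 is a doubling. A level of one gene is not set against that of another, since each probe set has its own brightness. The number of mice limits the precision of every value.

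Lysosomes are acid compartments in which hydrolases degrade proteins, glycans and lipids brought in by endocytosis, phagocytosis and autophagy. Cathepsins are their main proteases; monocytes, macrophages and dendritic cells are rich in several of them and use them to process antigen, while most glycosidases, sulfatases and lipid hydrolases serve every cell and cause storage diseases when lost. Cystatins inhibit cysteine cathepsins, and lysozyme, which cleaves bacterial cell walls, is among the most abundant products of monocytes and granulocytes. Tfeb, Tfe3 and Mitf are related transcription factors that bind the E-box CACGTG and activate many lysosomal genes together.

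Of the 46 genes, 26 had a lower mean in HoxA9AA/Meis1 marrow (56.5%, against 46.4% of all genes). Proteases typical of monocytes were mostly lower in HoxA9AA/Meis1 marrow, led by Ctsl (difference −1.46), Ctss (−1.01), Lgmn (−0.99) and Ctsh (−0.84), as were both lysozymes. Lysosomal enzymes had a higher mean in 12 of 19 cases (63.2%, against 53.6% of all genes), with Gaa at 0.56, Hexa at 0.51 and Smpd1 at 0.45, while Asah1 (−0.91) and Lipa (−0.58) had lower ones. None of the 46 genes passed the test (limma, adjusted p under 0.05 over all genes; smallest adjusted p = 0.731), and neither did any of the other genes (0.0% of 19938). At an unadjusted p under 0.05 stood 5 of 46 genes with a lower mean, or 10.9% against 2.59% of all genes, namely Ctsl, Ctss, Ctsh, Asah1 and Lyz1. A further 3 had a higher mean, Gaa, Smpd1 and Idua, which is 6.52% against 4.15% of all genes. All 3 HoxA9AA/Meis1 mice lay below all 3 HoxA9wt/Meis1 mice for 6 genes (13.04%, against 4.8% of all genes), and above them for 1 gene (2.17%, against 6.6%). The 6 genes include Lyz1 and Lyz2, near-identical copies that may not be separate observations.

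These counts depended on single mice, and so did those over all genes. The 5 lower genes became 12 without HoxA9AA replicate 2 (26.1%, against 5.76% of all genes). They became 3 without HoxA9AA replicate 1 (6.52%, against 2.42%) or HoxA9wt replicate 2 (against 1.80%). Only 1 was left without HoxA9wt replicate 1 or HoxA9wt replicate 3 (2.17%, against 1.41% and 1.26%). The 3 higher genes became 6 without HoxA9AA replicate 2 (13.04%, against 8.29% of all genes). They became 0 without HoxA9AA replicate 1, HoxA9AA replicate 3, HoxA9wt replicate 2 or HoxA9wt replicate 3, where 1.79% to 4.14% of all genes were higher. Without HoxA9AA replicate 2 the groups did not overlap for 14 genes below (30.4%, against 11.4%) and 9 above (19.6%, against 16.9%). Without HoxA9wt replicate 2 there were 10 below (21.7%, against 8%). The count below was 7 without HoxA9AA replicate 1, HoxA9AA replicate 3 or HoxA9wt replicate 3 (15.2%, against 11.75%, 8.36% and 7.10%). It was 6 without HoxA9wt replicate 1 (13.04%, against 10.2%), where there were 7 above (15.2%, against 10.2%). The count above was 2 without HoxA9AA replicate 1, HoxA9AA replicate 3 or HoxA9wt replicate 2 (4.35%, against 11.03% to 11.13%). No gene of the 46 passed the adjusted test in any of these fits.

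**Figure D1:**
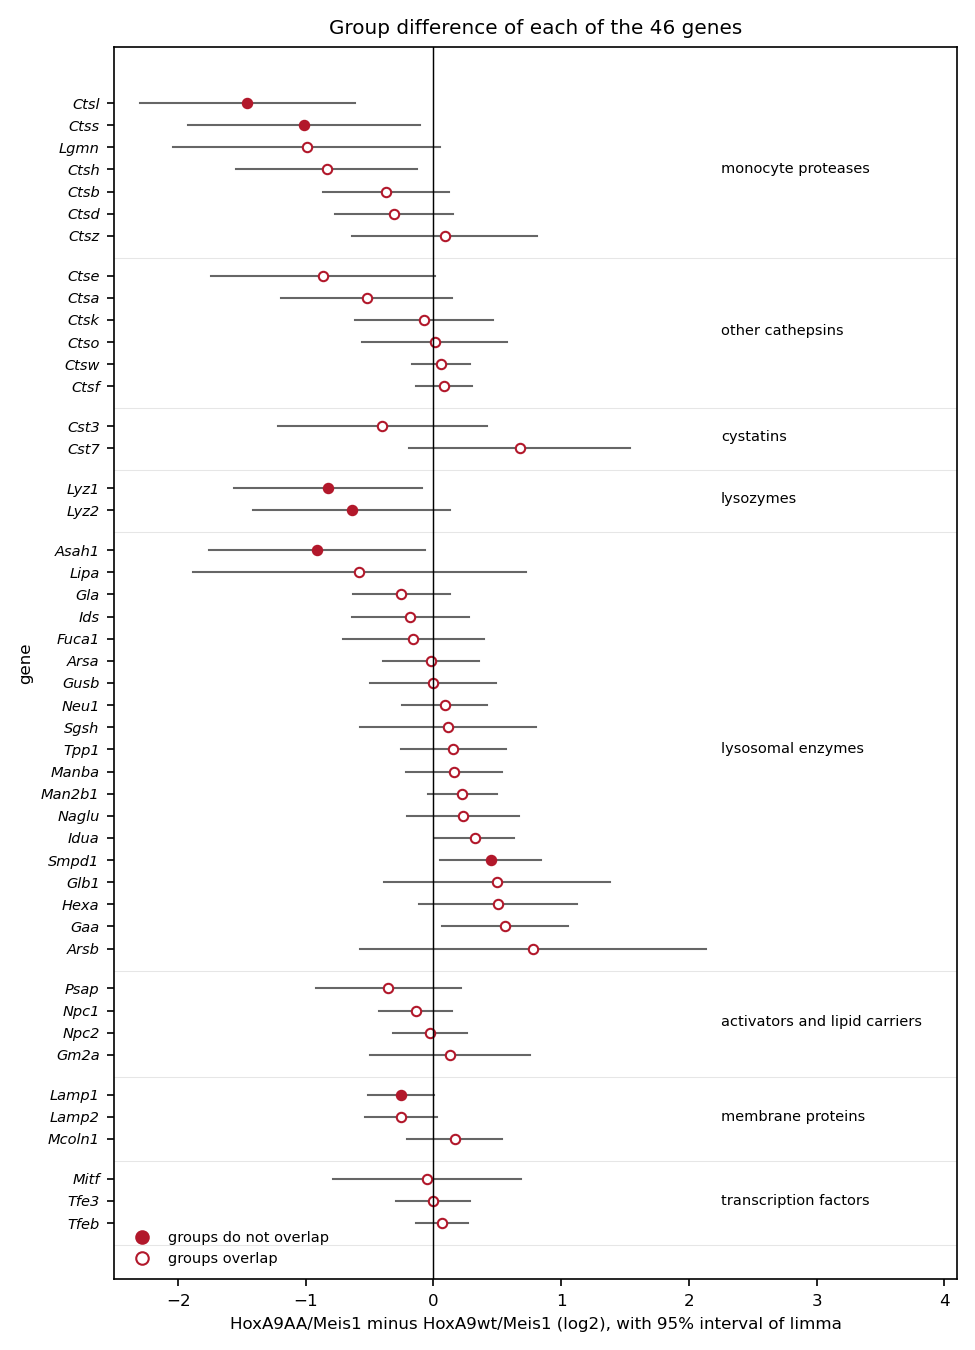
Group difference of each of the 46 genes (horizontal axis, log2, HoxA9AA/Meis1 minus HoxA9wt/Meis1) with its 95% interval from limma, by role; filled points mark genes whose groups do not overlap. The monocyte proteases lie mostly left of 0, down to −1.46 for Ctsl, and 12 of the 19 lysosomal enzymes lie right of it (63.2%, against 53.6% of all genes).

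The arrays were comparable in level, with medians over all probe sets of 6.73 to 6.85. As a measure of background, the 95th percentile of 1027 olfactory receptor genes lay at 6.52 to 6.72. Of the 46 genes, 42 lay above it on all 6 arrays, Ctsk on 5 and Arsa on 1, and Ctsf and Ctsw on none. The spread was larger among the HoxA9AA/Meis1 mice for 40 of the 46 genes, against 70.8% of all genes. HoxA9AA replicate 1 lay below the HoxA9wt/Meis1 range for 25 of the 46 genes (54.3%, against 26.4% of all genes) and above it for 14 (30.4%, against 40.2%). HoxA9AA replicate 3 lay below it for 16 (34.8%, against 29.3%) and above it for 17 (37.0%, against 33.2%). HoxA9AA replicate 2 lay inside it for 33 genes, below it for 9 (19.6%, against 26.4%) and above it for 4 (8.70%, against 21.6%).

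Among the 7 monocyte proteases, 6 had a lower mean in HoxA9AA/Meis1 marrow (85.7%, against 46.4% of all genes). The median difference of the 7 was −0.84, beside 0.01 over all genes. Ctsl, which encodes the cysteine protease cathepsin L, measured 8.39, 9.33 and 7.95 in HoxA9AA/Meis1 replicates 1, 2 and 3, against 10.05, 9.72 and 10.27 in HoxA9wt/Meis1. All HoxA9AA mice were below all HoxA9wt mice, and the difference was −1.46 ± 0.35 (SE; limma, adjusted p = 0.731), 2.74-fold lower. Its range on leaving out 1 mouse was −1.84 to −1.15. Ctss, cathepsin S, which trims the invariant chain of MHC class II molecules, measured 10.62, 12.24 and 11.35 in HoxA9AA/Meis1, against 12.52, 12.32 and 12.41 in HoxA9wt/Meis1. The groups do not overlap, although HoxA9AA replicate 2 lay close to the HoxA9wt mice, and the difference of −1.01 ± 0.38 became −0.62 without HoxA9AA replicate 1.

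Ctsh encodes cathepsin H, an aminopeptidase. It measured 9.59, 10.46 and 9.27 in HoxA9AA/Meis1, against 10.66, 10.46 and 10.71 in HoxA9wt/Meis1. HoxA9AA replicate 2 equalled HoxA9wt replicate 2, and the other HoxA9AA mice were lower than every HoxA9wt mouse. Lgmn encodes legumain, an asparaginyl endopeptidase that also processes cathepsins. It measured 7.31, 8.71 and 8.31 in HoxA9AA/Meis1, against 9.77, 8.57 and 8.97 in HoxA9wt/Meis1, so the groups overlap through HoxA9AA replicate 2. The HoxA9wt mice themselves spread by an SD of 0.61, and the difference of −0.99 ± 0.43 became −0.59 without HoxA9AA replicate 1 and −0.66 without HoxA9wt replicate 1.

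Differences were smaller for cathepsins B, D and Z. Ctsb, cathepsin B, measured 10.78, 11.19 and 11.33 in HoxA9AA/Meis1, against 11.80, 11.18 and 11.43 in HoxA9wt/Meis1 (difference −0.37 ± 0.21). Ctsd, the aspartic protease cathepsin D, measured 11.50, 10.87 and 11.32, against 11.78, 11.36 and 11.47 (−0.31 ± 0.19); here HoxA9AA replicate 2, not replicate 1 or 3, was the lowest mouse. Without HoxA9AA replicate 2 the Ctsd difference was −0.13, and it was −0.185 without HoxA9wt replicate 1. The Ctsb difference was −0.205 without HoxA9wt replicate 1 and −0.21 without HoxA9AA replicate 1. Ctsz, cathepsin Z, a carboxypeptidase, varied more among the HoxA9AA mice, at 9.46, 10.05 and 10.74, against 10.01, 9.94 and 10.04 in HoxA9wt/Meis1. Its mean difference of 0.09 turned to −0.24 without HoxA9AA replicate 3 and was 0.40 without HoxA9AA replicate 1.

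Markers of monocytes were lower in HoxA9AA replicates 1 and 3, as were these proteases on average, but not in HoxA9AA replicate 2. There the proteases averaged −0.33 relative to the HoxA9wt mean, against −0.23 in HoxA9wt replicate 2. Of the 7 proteases, HoxA9AA replicate 2 lay below the HoxA9wt range for 3 (42.9%, against 26.4% of all genes). It lay inside that range for 3 and above it for 1 (14.3%, against 21.6%). Of 10 listed markers 9 were measured, all with a lower mean in HoxA9AA/Meis1 (100%, against 46.4% of all genes). Their mean level was 8.42, 10.23 and 8.64 in HoxA9AA replicates 1, 2 and 3, against 9.87 to 10.35 in HoxA9wt/Meis1. Relative to the HoxA9wt mean this was −1.77, 0.05 and −1.54 in HoxA9AA replicates 1, 2 and 3, and the medians over the markers were −1.20, 0.03 and −0.84. The lectin receptor genes Clec4a1 and Clec4a3 stood lowest, at −3.31 and −4.26 in HoxA9AA replicate 1 and at −4.61 and −3.75 in replicate 3. Csf1r, the receptor for macrophage colony-stimulating factor, measured 8.81, 10.19 and 9.28, against 10.31, 9.58 and 10.13. Ccr2, the chemokine receptor of inflammatory monocytes, measured 9.97, 12.05 and 11.30, against 12.25, 12.06 and 12.10. Of the 9 markers 7 were above the olfactory receptor level on all 6 arrays, and HoxA9AA replicate 2 lay near the HoxA9wt mice. Clec4a1 in HoxA9AA replicate 3 (5.49) and Clec4a3 in HoxA9AA replicate 1 (6.69) were not above it, so those values are at background. Of the 10 macrophage markers 8 had a lower mean (80%, against 46.4% of all genes), with list means of −0.78, −0.16 and −0.42 in HoxA9AA/Meis1, against −0.40 to 0.51 in HoxA9wt/Meis1. Their differences ran from −2.56 for Mertk to 1.28 for Vcam1, and 5 of the 10 were above the olfactory receptor level on all 6 arrays. Markers of late neutrophils differed widely within each group, at 0.85, 1.26 and −0.53 in HoxA9AA/Meis1, against 0.56, 1.18 and −1.74 in HoxA9wt/Meis1. The medians over these markers were 1.51, 1.57 and 0.04, against 0.59, 1.31 and −2.20. Of the 10 markers 8 had a higher mean and 2 a lower one (20% lower, against 46.4% of all genes), Mmp8 at −3.54 and Ltf at −0.24. Promyelocyte markers stood at 1.17, −0.01 and 0.02 in HoxA9AA/Meis1, against 0.03, 0.28 and −0.31 in HoxA9wt/Meis1, so that HoxA9AA replicate 1 was high in these and low in monocyte markers. A lower mean throughout was not particular to monocyte markers. All 7 measured erythroid and all 4 measured megakaryocyte markers had one too, with 2 and 3 above the olfactory receptor level on all 6 arrays. All 5 promyelocyte and all 6 measured B cell markers had a higher mean. In whole marrow, fewer cells of a type and less RNA per cell cannot be told apart, and the part of monocyte content in the protease values was not tested.

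None of the other 6 cathepsins reached an unadjusted p under 0.05. Ctse, the aspartic protease cathepsin E, measured 8.28, 9.60 and 8.28 in HoxA9AA/Meis1, against 9.44, 9.83 and 9.49 in HoxA9wt/Meis1 (−0.87 ± 0.37). As for Ctsh, 2 HoxA9AA mice stood apart and replicate 2 did not. Ctsa, a serine carboxypeptidase that also shields beta-galactosidase and neuraminidase from degradation, measured 9.55, 10.59 and 10.44, against 10.93, 10.56 and 10.66. Its difference of −0.52 ± 0.28 became −0.20 without HoxA9AA replicate 1. Ctsk, the collagen-degrading protease of osteoclasts, differed by −0.08 ± 0.22. The osteoclast markers Acp5, Ocstamp, Dcstamp and Calcr differed by 0.14, 0.06, −0.04 and −0.02. Ctso differed by 0.01 ± 0.24, with 95% limits of −0.56 and 0.58. Ctsf, and Ctsw of cytotoxic lymphocytes, were not above the olfactory receptor level on any array.

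The cystatins parted from each other. Cst3, cystatin C, a secreted inhibitor of cysteine cathepsins, measured 10.14, 11.33 and 11.36 in HoxA9AA/Meis1, against 11.60, 11.25 and 11.18 in HoxA9wt/Meis1. Only HoxA9AA replicate 1 was low, and without it the difference of −0.40 ± 0.34 was 0.00. Cst7, cystatin F, an inhibitor within granules and lysosomes of immune cells, measured 11.95, 10.94 and 12.19, against 11.38, 11.09 and 10.58 (0.68 ± 0.36). HoxA9AA replicates 1 and 3 were above every HoxA9wt mouse, and replicate 2 was inside their range. Both genes lie on chromosome 2, in a region where HoxA9AA replicate 1 was low as a whole. The 40 nearest genes whose mean among HoxA9wt mice was at least 8 had a median of −0.87 around Cst3 and −0.95 around Cst7 in that mouse, relative to the HoxA9wt mean, and of 0.15 around each in HoxA9AA replicate 3. Cst3 at −1.20 was thus close to its neighbours, and Cst7 at 0.93 was not. The neighbours of Ctsa and Ctsz, further along chromosome 2, stood at −0.25 and −0.07.

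Both lysozyme genes had all HoxA9AA/Meis1 mice below all HoxA9wt/Meis1 mice. Lyz2, the myeloid lysozyme gene, measured 12.73, 12.82 and 11.59 in HoxA9AA/Meis1, against 13.03, 13.07 and 12.96 in HoxA9wt/Meis1. Lyz1, best known from Paneth cells of the gut, measured 8.21, 8.42 and 7.21, against 8.90, 8.67 and 8.75. In both genes HoxA9AA replicate 3 was the lowest mouse, whereas replicates 1 and 2 lay closer to the HoxA9wt mice. The differences were −0.64 ± 0.32 for Lyz2 and −0.83 ± 0.31 for Lyz1 (SE; limma, adjusted p = 0.746 and 0.731), and they became −0.24 and −0.46 without HoxA9AA replicate 3. The genes are adjacent, near-identical copies on chromosome 10, so that probes for either may also bind the other's transcript, and their values are uncertain as separate observations.

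**Figure D2:**
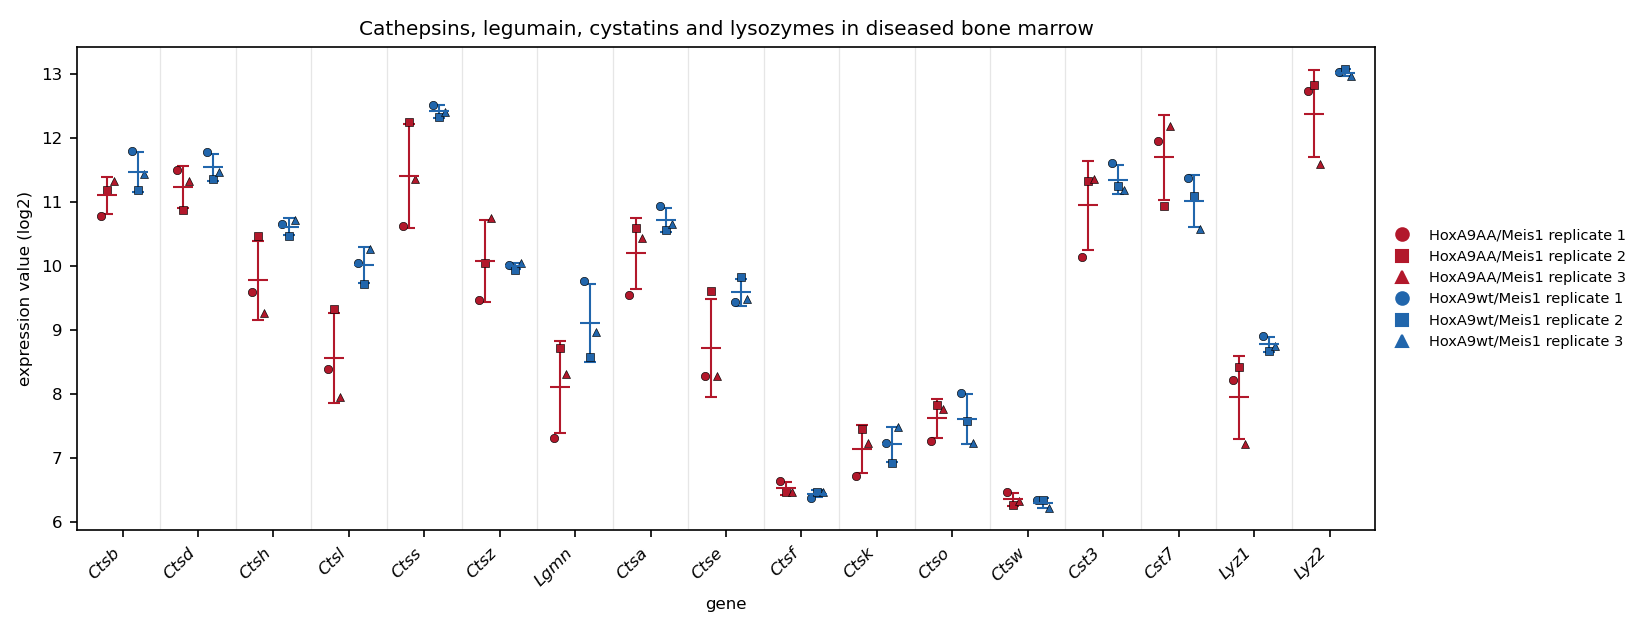
Expression values (vertical axis, log2) of the cathepsins, legumain, cystatins and lysozymes in all 6 mice; each symbol is 1 mouse, with mean and SD of the 3 mice as a bar, HoxA9AA/Meis1 left and HoxA9wt/Meis1 right. Ctsl, Ctss, Lyz1 and Lyz2 have no overlap between the groups, and HoxA9AA replicate 2 is the nearest to the HoxA9wt mice in each of them.

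Of the 19 lysosomal enzymes, 12 had a higher mean in HoxA9AA/Meis1 (63.2%, against 53.6% of all genes) and 7 a lower one. The median difference was 0.16, beside 0.01 over all genes. Without HoxA9AA replicate 3 the median was 0.042, and without HoxA9wt replicate 3 it was 0.088. The groups did not overlap for 1 enzyme above and 1 below (5.26% each, against 6.6% and 4.8% of all genes). These shares are near those of all genes, so the pair is not read as a result. The 2 enzymes were Smpd1 and Asah1, which both act in ceramide turnover. Smpd1, acid sphingomyelinase, which makes ceramide from sphingomyelin, measured 8.69, 8.43 and 8.96 in HoxA9AA/Meis1, against 8.38, 8.32 and 8.03 in HoxA9wt/Meis1 (0.45 ± 0.16; SE, limma, adjusted p = 0.731). Asah1, acid ceramidase, which splits ceramide into sphingosine and fatty acid, measured 8.76, 10.23 and 9.64, against 10.65, 10.38 and 10.33 (−0.91 ± 0.35, adjusted p = 0.731). HoxA9AA replicate 2 was nearest to the HoxA9wt mice in both. Without HoxA9AA replicate 1 the Asah1 difference was −0.52 and that of Smpd1 stayed at 0.45.

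Gaa, acid alpha-glucosidase, which degrades glycogen, measured 7.82, 7.45 and 8.24 in HoxA9AA/Meis1, against 7.45, 7.20 and 7.18 in HoxA9wt/Meis1 (0.56 ± 0.21). Idua, alpha-iduronidase, which acts on heparan and dermatan sulfate, measured 8.16, 7.85 and 8.22, against 7.87, 7.76 and 7.63 (0.32 ± 0.13). In each gene HoxA9AA replicates 1 and 3 were above every HoxA9wt mouse, and replicate 2 fell level with or just under the highest of them. Hexa, the alpha chain of beta-hexosaminidase, measured 9.50, 9.40 and 10.03, against 9.49, 9.26 and 8.66 (0.51 ± 0.26), and its difference was 0.27 without HoxA9wt replicate 3 and 0.31 without HoxA9AA replicate 3. Glb1, beta-galactosidase, measured 9.23, 9.14 and 10.26, against 9.62, 8.76 and 8.76 (0.50 ± 0.37), and its difference was 0.14 without HoxA9AA replicate 3. For both genes HoxA9AA replicate 3 was the highest of the 6 mice.

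Arsb, arylsulfatase B, which removes sulfate from dermatan and chondroitin sulfate, stood out in 1 mouse. It measured 11.30, 9.45 and 9.04 in HoxA9AA/Meis1, against 9.08, 9.45 and 8.92 in HoxA9wt/Meis1, a difference of 0.78 ± 0.56 that was 0.10 without HoxA9AA replicate 1. A second probe set of the gene gave 11.67, 9.01 and 8.91, against 8.81, 9.07 and 8.50. The 40 neighbouring genes on chromosome 13 had a median of −0.36 in HoxA9AA replicate 1, relative to the HoxA9wt mean. Lipa, lysosomal acid lipase, which releases cholesterol from its esters, had the opposite pattern. It measured 8.81, 10.85 and 10.44, against 11.18, 10.31 and 10.35 (−0.58 ± 0.54), and its difference was 0.03 without HoxA9AA replicate 1.

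The other enzymes differed less. Man2b1, alpha-mannosidase, differed by 0.23 ± 0.11 and Naglu, which acts on heparan sulfate, by 0.23 ± 0.18. Gla, alpha-galactosidase A, differed by −0.25 ± 0.16, Ids, iduronate sulfatase, by −0.18 ± 0.19, and Fuca1, alpha-fucosidase, by −0.16 ± 0.23. Manba, beta-mannosidase, and Tpp1, a tripeptidyl peptidase, differed by 0.16 each. Neu1, the neuraminidase that Ctsa shields, differed by 0.09, and Sgsh, a heparan sulfatase, by 0.11. Gusb, beta-glucuronidase, differed by −0.01, with 95% limits of −0.50 and 0.49. Arsa, arylsulfatase A, at −0.02, was above the olfactory receptor level on 1 array only. An unadjusted p under 0.05 was reached by none of these.

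**Figure D3:**
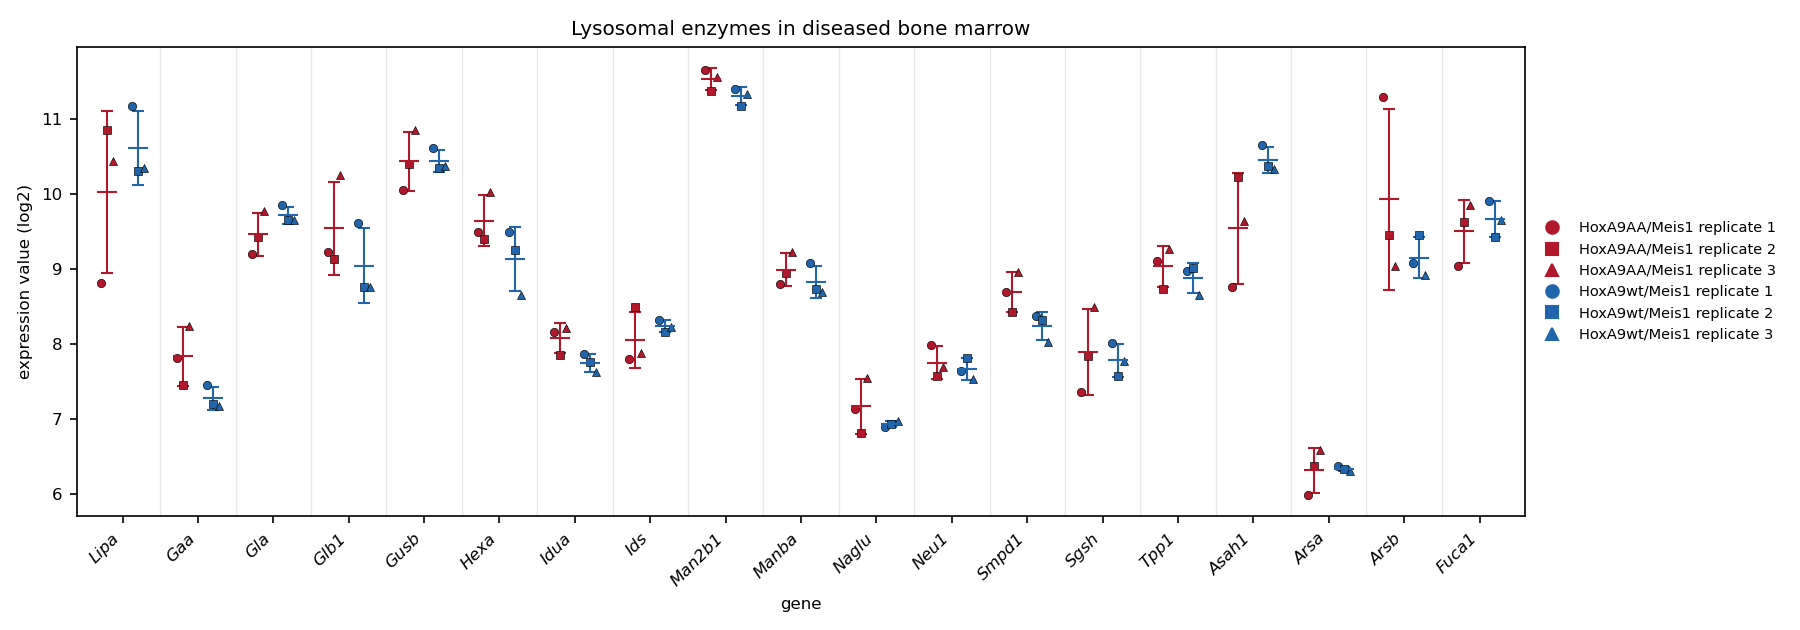
Expression values (vertical axis, log2) of the 19 lysosomal enzymes in all 6 mice; each symbol is 1 mouse, with mean and SD of the 3 mice as a bar, HoxA9AA/Meis1 left and HoxA9wt/Meis1 right. Arsb is high in HoxA9AA replicate 1 alone, at 11.30, and Lipa is lowest there, at 8.81.

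Set against each other, the monocyte proteases lay lower and the lysosomal enzymes had no clear direction. The median difference was −0.84 for the proteases and 0.16 for the enzymes, and the first minus the second was −0.99. The enzyme median was 0.042 without HoxA9AA replicate 3. Averaged over genes and relative to the HoxA9wt mean, the 7 proteases stood at −1.07, −0.33 and −0.70 in HoxA9AA replicates 1, 2 and 3. In HoxA9wt replicates 1, 2 and 3 they stood at 0.21, −0.23 and 0.02. HoxA9AA replicate 2 thus lay just under HoxA9wt replicate 2. The 19 enzymes stood at −0.06, 0.05 and 0.32 in HoxA9AA/Meis1, which overlaps the 0.17, −0.05 and −0.13 of HoxA9wt/Meis1. Taken within each mouse, proteases minus enzymes came to −1.02, −0.38 and −1.02 in HoxA9AA/Meis1, against 0.03, −0.18 and 0.15 in HoxA9wt/Meis1. The groups do not overlap in this quantity, which carries no p because the genes were chosen with results known. HoxA9AA replicate 2 was the nearest to the HoxA9wt mice, and its monocyte markers stood at 0.05. Proteases minus enzymes came to −0.53 when all 12 cathepsins and legumain took the place of the 7 proteases, and to −0.63 without HoxA9AA replicate 3.

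**Figure D4:**
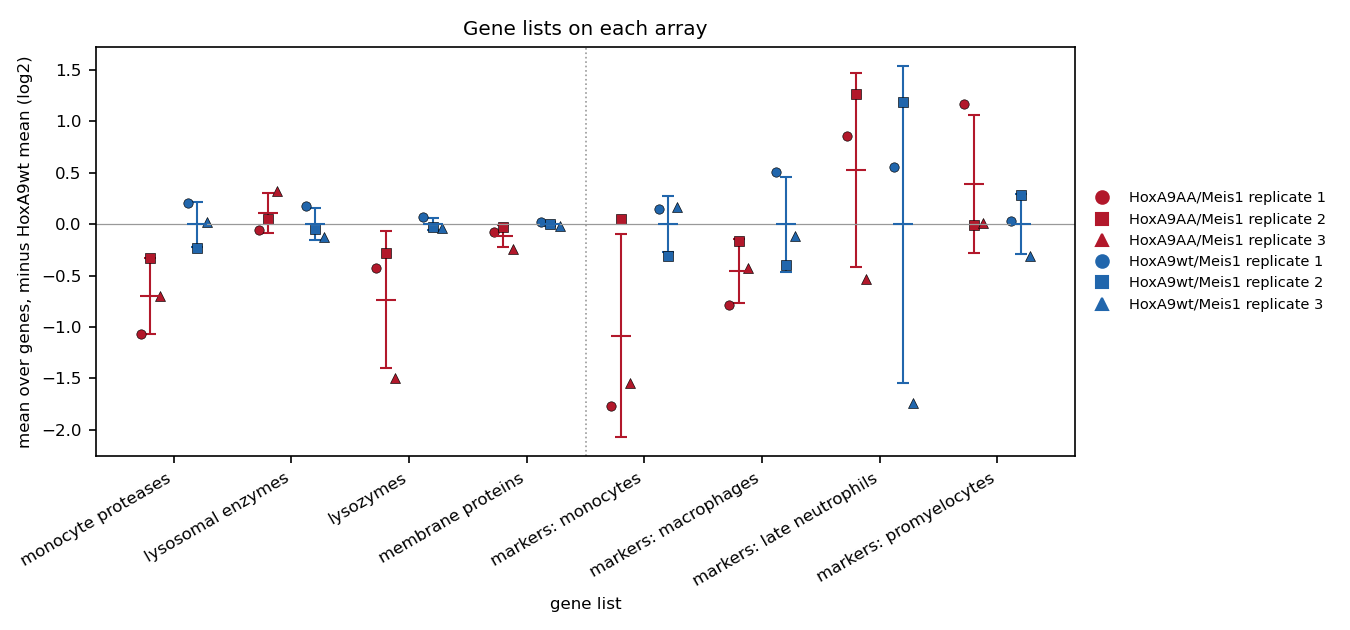
Mean over the genes of a list of log2 values after subtracting each gene's mean in HoxA9wt mice (vertical axis) in all 6 mice; each symbol is 1 mouse, with mean and SD of the 3 mice as a bar, HoxA9AA/Meis1 left and HoxA9wt/Meis1 right, and lists right of the dotted line are cell type markers. Monocyte proteases lie at −1.07, −0.33 and −0.70 in the HoxA9AA mice, where monocyte markers lie at −1.77, 0.05 and −1.54. In the HoxA9wt mice the proteases lie at 0.21, −0.23 and 0.02, and the monocyte markers at 0.15, −0.31 and 0.16.

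Activator proteins and lipid carriers had mean differences of −0.35 to 0.13, and none reached an unadjusted p under 0.05 (limma). Psap, whose product is cut into saposins that help enzymes reach their lipids, measured 10.32, 11.19 and 11.06 in HoxA9AA/Meis1, against 11.38, 11.09 and 11.16 in HoxA9wt/Meis1. HoxA9AA replicate 1 was the lowest and replicate 3 lay just below the HoxA9wt mice, and the difference of −0.35 ± 0.24 was −0.085 without replicate 1. The 95% limits of Psap were −0.92 and 0.21. Gm2a, the GM2 activator that works with Hexa, differed by 0.13 ± 0.26, with 95% limits of −0.50 and 0.75. Npc1 and Npc2, which pass cholesterol out of the lysosome, differed by −0.14 ± 0.12 and −0.03 ± 0.12, with 95% limits of −0.43 to 0.15 and −0.32 to 0.26.

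The abundant membrane glycoproteins Lamp1 and Lamp2, which line the lysosome and protect its membrane, had the same mean difference. Lamp1 measured 11.42, 11.75 and 11.61 in HoxA9AA/Meis1, against 11.91, 11.82 and 11.82 in HoxA9wt/Meis1, with no overlap (−0.26 ± 0.11). Lamp2 measured 11.65, 11.91 and 11.54, against 12.01, 11.97 and 11.89 (−0.26 ± 0.12), where HoxA9AA replicate 2 was above the lowest HoxA9wt mouse. Neither reached an unadjusted p under 0.05 (0.052 and 0.067, limma). Mcoln1, the calcium channel mucolipin 1, differed by 0.17 ± 0.15 and by 0.00 without HoxA9AA replicate 1, the highest mouse, at 8.80 against 8.25 to 8.33 in HoxA9wt/Meis1.

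The transcription factors that act on lysosomal genes differed by 0.07 or less in size. Tfeb measured 7.09, 6.93 and 7.0 in HoxA9AA/Meis1, against 6.91, 6.98 and 6.92 in HoxA9wt/Meis1 (0.07 ± 0.08, 95% limits −0.13 and 0.27). Tfe3 measured 7.33, 7.59 and 7.73, against 7.57, 7.60 and 7.50 (−0.01 ± 0.12). Mitf measured 6.90, 7.63 and 7.12, against 7.86, 6.80 and 7.15 (−0.05 ± 0.31), and its HoxA9wt mice spread more widely than its HoxA9AA mice. Tfeb and Tfe3 are controlled largely through their entry into the nucleus, which an RNA measurement does not show.

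The E-box CACGTG, which reads the same on both strands, was looked for in RefSeq promoter windows of 300 bases (250 before and 50 after each start, build GRCm38.p6) of the 40 genes with a window. It was present for 13 of them, or 32.5%, against 9.50% of 15614 measured genes, and in 27.1% of their windows, against 7.15% of all windows. Its longer form TCACGTGA, which contains it, was present for 4 genes, Ctsa, Ctsd, Gla and Mcoln1 (10%, against 1.52%). The 13 genes with CACGTG had a median difference of −0.02 and the 27 without it one of −0.01. Of the 5 monocyte proteases with a window 60% carried it, and of the 18 enzymes 33.3%. The windows of 4 genes are shown as examples that hold the longer form or several copies; Gla, which also holds the longer form, is not shown. They give the 250 bases before the start, 5′ to 3′ on the gene's strand, with CACGTG or TCACGTGA in capitals.
Ctsd (chr7:142387828-142388077, minus strand): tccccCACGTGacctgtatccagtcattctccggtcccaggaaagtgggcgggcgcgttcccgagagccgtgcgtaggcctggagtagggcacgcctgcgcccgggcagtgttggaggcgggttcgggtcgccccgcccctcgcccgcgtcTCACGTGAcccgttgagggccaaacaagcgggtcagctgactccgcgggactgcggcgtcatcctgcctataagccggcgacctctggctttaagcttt
Ctsa (chr2:164833523-164833772, plus strand): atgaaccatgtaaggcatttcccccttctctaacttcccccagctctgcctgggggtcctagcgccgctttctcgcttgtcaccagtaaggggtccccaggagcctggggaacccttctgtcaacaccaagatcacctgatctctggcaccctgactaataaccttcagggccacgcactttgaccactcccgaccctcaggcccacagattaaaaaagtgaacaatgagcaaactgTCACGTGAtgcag
Mcoln1 (chr8:3500269-3500518, plus strand): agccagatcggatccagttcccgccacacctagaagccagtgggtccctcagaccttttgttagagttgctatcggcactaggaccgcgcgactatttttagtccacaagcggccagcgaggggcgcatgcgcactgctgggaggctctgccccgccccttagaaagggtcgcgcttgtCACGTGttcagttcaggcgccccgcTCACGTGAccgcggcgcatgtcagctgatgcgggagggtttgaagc
Lamp1 (chr8:13158911-13159160, plus strand): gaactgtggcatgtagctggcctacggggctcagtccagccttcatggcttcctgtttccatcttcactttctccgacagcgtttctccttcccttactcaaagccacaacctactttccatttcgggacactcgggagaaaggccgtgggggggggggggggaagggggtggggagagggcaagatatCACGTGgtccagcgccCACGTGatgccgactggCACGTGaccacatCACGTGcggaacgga
Lamp1 carries 4 copies, the first beginning 61 bases before the start, and Mcoln1 and Ctsd carry 2 each. Ctsa carries 2 in the window of 300 bases, of which 1 is among the 250 bases shown. Ctsd, Ctsa and Lamp1 had lower means in HoxA9AA/Meis1 (−0.31, −0.52 and −0.26) and Mcoln1 a higher one (0.17). A match of letters is a description and no evidence of binding.

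Other lysosomal genes outside the 46, from lists of 88 genes of which 78 were measured, gave 6 higher and 4 lower at an unadjusted p under 0.05 (7.69% and 5.13%, against 4.15% and 2.59% of all genes), and 0 passed the adjusted test. Over these 78 genes, all HoxA9AA mice lay above all HoxA9wt mice for 5 and below them for 3. That is 6.41% and 3.85%, no more than the 6.6% and 4.8% of all genes. Subunits of the proton pump that acidifies the lysosome had a lower mean in 18 of 23 cases (78.3%, against 46.4% of all genes), with a median of −0.09. Of the 23, 4 were above the olfactory receptor level on no array. In HoxA9AA replicate 1, 15 of the 23 lay below the HoxA9wt range (65.2%, against 26.4% of all genes). In replicate 2 it was 3 (13.04%, against 26.4%) and in replicate 3 it was 5 (21.7%, against 29.3%). Atp6v0d2, a subunit of macrophages and osteoclasts, measured 6.71, 7.51 and 6.35 in HoxA9AA/Meis1, against 7.54, 7.45 and 8.28 in HoxA9wt/Meis1. It was above the olfactory receptor level on 4 arrays, and not in HoxA9AA replicates 1 and 3. Atp6ap2 and Atp6v1a differed by −0.30 each. Of 33 other lysosomal proteins 20 had a higher mean and 13 a lower one (39.4% lower, against 46.4% of all genes). Galns, which desulfates keratan sulfate, measured 8.76, 8.71 and 8.93, against 8.33, 8.49 and 8.29, so that the HoxA9AA mice lay close together and above the HoxA9wt mice (0.43; limma, adjusted p = 0.731). Pla2g15, a lysosomal phospholipase, measured 7.68, 7.66 and 7.86, against 7.44, 7.35 and 7.21. Naaa, an acid amidase related to Asah1, measured 7.07, 8.63 and 7.35, against 8.96, 9.50 and 8.93, with all HoxA9AA mice below (−1.45), as for Asah1.

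Genes that sort enzymes to the lysosome had a higher mean in 5 of 6 cases and a lower one in 1 (16.7% lower, against 46.4% of all genes). Sort1, a sorting receptor, measured 10.61, 10.22 and 10.59 in HoxA9AA/Meis1, against 10.08, 10.20 and 9.53 in HoxA9wt/Meis1. Gnptg, a subunit of the enzyme that adds the mannose 6-phosphate tag, measured 8.86, 8.58 and 8.99, against 8.54, 8.50 and 8.38. Igf2r, the receptor for that tag, reached 10.79 in HoxA9AA replicate 3, against 8.89 and 7.93 in replicates 1 and 2 and 7.96 to 8.31 in HoxA9wt/Meis1. Of 13 genes that control Tfeb at the lysosome, 8 had a lower mean (61.5%, against 46.4% of all genes). Among them Fnip1, a partner of folliculin, measured 10.08, 10.33 and 9.42, against 10.59, 10.60 and 10.44, and the GTPase gene Rragc measured 8.57, 9.25 and 9.24, against 9.69, 9.45 and 9.41. Fnip2 differed by −1.03, with 6.40 in HoxA9AA replicate 1, which is under the olfactory receptor level of 6.72 on that array. The stefins, inhibitors of cysteine cathepsins inside cells, split by mouse. Stfa2 and Stfa3 measured 7.95 and 8.36 in HoxA9AA replicate 2, and at most 5.10 in HoxA9AA replicates 1 and 3, against 5.14 to 7.29 in HoxA9wt/Meis1. They were above the olfactory receptor level on 2 and 3 arrays, so the low values are at background. Cstb differed by −0.24.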

How the data were processed

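RNA of 6 mouse bone marrows was measured on 6 Affymetrix gene arrays. The authors deposited log2 values with 2 decimals. The submitters' processing notes name oligo and RMA, without versions or annotation. The scale was read from the range of the values. No array was scaled or left out.

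Of 35556 probe sets 21789 had 1 gene symbol in the platform annotation, while 1621 with several symbols and 12146 unnamed ones were not used. Symbols were checked through Entrez identifiers against RefSeq (GRCm38.p6), and 0 changed. The brightest probe set of each gene left 19938 genes. Arsb and Mitf had 2 probe sets each, of the same sign. Gene order and chromosomes came from RefSeq.

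The test was limma's moderated one (limma 3.58.1, R 4.3.3; two-sided, without a block). Its p-values were adjusted by Benjamini-Hochberg across the 19938 genes and called under 0.05, and the procedure was tested on simulated data first. Every p is from this fit. Differences are HoxA9AA/Meis1 minus HoxA9wt/Meis1. Genes and lists were chosen from general knowledge, with earlier results of these data known, so list summaries carry no p. Every one of the 46 genes could be named, and up to 3 genes with the smallest p of each further lysosomal list. Settings varied are given in the closing section. Figures were drawn with matplotlib 3.10.9.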

Additional observations from a re-analysis of the deposited data

How the results depend on the processing

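With 6 arrays in the fit, 0 of the 46 genes and 0 of all genes passed the adjusted test in each of the 7 other settings. These were the replicate number as a block, array weights, a robust eBayes with a trend, median centring, quantile normalization, the mean of probe sets, and a filter on dim genes. Leaving out 1 array in turn, all genes past the test ranged from 0 to 48, with 48 without HoxA9AA replicate 2 and 1 without HoxA9wt replicate 3, and the 46 genes stayed at 0. Lower genes at an unadjusted p under 0.05 ranged from 1 to 12 and higher ones from 0 to 6. The shares of all genes ranged from 1.26% to 5.76% and from 1.79% to 8.29%. Genes with all HoxA9AA mice below ranged from 6 to 14, and above from 1 to 9. Here the shares of all genes ranged from 7.10% to 11.75% and from 9.76% to 16.9%. Proteases minus enzymes ranged from −1.36 to −0.63, and was −0.53 with all cathepsins and legumain and −1.07 without chromosome 2. Genes with all HoxA9AA mice above numbered 3 after quantile normalization and 3 after median centring, against 1 in the main fit (2.17%, against 6.6% of all genes). The shares of all genes in those settings are not given here, so these counts are not read as a result. With the replicate number as a block, 1 higher and 6 lower genes had an unadjusted p under 0.05 (2.17% and 13.04%, against 3.45% and 2.15% of all genes). Same-numbered mice did not deviate together (r over genes −0.21, −0.10 and −0.01), and differently numbered ones gave −0.16 to 0.24. With 3 mice per group a small shared effect could go unseen, so whether the numbers pair the mice cannot be told.

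On leaving out 1 array the sign turned for 14 of the 46 genes, and Mcoln1 reached 0. Their ranges were Arsa −0.16 to 0.14, Cst3 −0.61 to 0.0017, Ctsk −0.23 to 0.13, Ctso −0.17 to 0.21, Ctsz −0.24 to 0.40, Fuca1 −0.33 to 0.077, Gm2a −0.10 to 0.32, Gusb −0.21 to 0.18; Lipa −0.99 to 0.032, Mcoln1 0 to 0.28, Mitf −0.29 to 0.24, Neu1 −0.032 to 0.18, Npc2 −0.082 to 0.083, Sgsh −0.19 to 0.38, Tfe3 −0.097 to 0.10. With all arrays it turned after quantile normalization (Ctso −0.071, Gusb 0.060, Npc2 0.047), median centring (Ctso −0.0083) and array weights (Gusb 0.091, Arsa 0.048, Npc2 0.044, Tfe3 0.045, Mitf 0.17). The cause was not tested. Of the 46 genes, the other 31 kept their direction whichever array was left out, and 40 in the settings with all arrays.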
